A study of Rattus norvegicus with 16 samples.

Results

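Laminin-332 and the integrin that anchors epithelial cells to it are described here through the genes Lama3, Lamb3, Itga6 and Itgb4 in the peripubertal rat mammary gland. The genes were chosen by name. Each is represented by the probe set (the group of array oligonucleotides read out as 1 value) with the highest mean over the 16 arrays, and each had 1 probe set with a single gene symbol. They are 4 of 14324 genes named on the Affymetrix array, and all 4 are among the 11796 genes that passed a filter on low values and were tested. The glands came from female Wistar Han rats at postnatal day (PND) 50 and PND35. The dams received vinclozolin, genistein or a mixture of both by daily gavage, starting on gestational day 1 and ending at PND 21, whereas dams of the control groups were untreated. Vinclozolin is a fungicide with antiandrogenic activity and genistein an estrogen receptor ligand from soy. The daily dose of each compound, alone or in the mixture, was 1 mg per kg. The groups, each with 2 arrays, were vinclozolin PND50, genistein PND50, mixture PND50, control PND50, vinclozolin PND35, genistein PND35, mixture PND35 and control PND35. All rats were fed a purified diet without phytoestrogens, and RNA from 5 individual glands was pooled for each array. All p-values therefore rest on the spread between pools and leave out that between single animals. The dams were dosed, and the sample labels name no litters, so whether pools of a treatment share litters is not known. Whole glands were used, with no cell sorting.

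Laminins are cross-shaped proteins of 3 chains that build basement membranes, the sheets on which epithelia rest. Laminin-332 is the form under stratified and glandular epithelia, and Lama3 and Lamb3 encode its alpha and beta chains. Itga6 and Itgb4 encode the alpha and beta subunits of the integrin that binds this laminin and ties it to keratin filaments in hemidesmosomes. The beta subunit pairs with this alpha subunit alone, whereas the alpha subunit also pairs with the beta subunit from Itgb1, and it is made by endothelial cells as well. In the mammary gland the basal, myoepithelial layer lies on the basement membrane, and laminin signals through integrins are known to support epithelial polarity and milk production.

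The sample titles say mammary gland and name no cell types. All 12 genes of a list of epithelial markers passed the filter. Among them were Cdh1, the cadherin of epithelial junctions, and Krt8, a keratin of luminal cells. The filter passed 11796 of 14324 named genes, hair follicle genes among them, so passing it does not identify a cell type. Myoepithelial genes were measured too, with the calponin gene Cnn1 at a mean log2 intensity of 10.51 at PND50 and 10.04 at PND35. The vinclozolin PND35 pools stood apart from the other 14. Their score for hair follicle genes, the mean of the centred log2 values of the list, was 3.11 and 2.79, against -0.54 to -0.31 in the others, and the skin keratinocyte score was 1.29 and 1.46, against -0.36 to -0.09. They also differed most from each other (SD of the difference 0.303 over the genes tested, 0.163 to 0.206 in the other groups). Skeletal muscle scores ran from -2.19 to 1.46 at PND50 and from -0.09 to 2.39 at PND35. All lists were drawn up with earlier results of these data known.

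The promoter tables hold Lama3 and Lamb3, and their 250 bases before the gene start are shown because both encode chains of one protein. Both come from RefSeq on the rat build GRCr8, plus strand, and are written 5′ to 3′. Capitals mark matches to TGANTCA, the motif of AP-1, a dimer of Jun and Fos proteins, on either strand. Lama3 lies at chr18:3952517-3952766 and Lamb3 at chr13:107362303-107362552.
Lama3: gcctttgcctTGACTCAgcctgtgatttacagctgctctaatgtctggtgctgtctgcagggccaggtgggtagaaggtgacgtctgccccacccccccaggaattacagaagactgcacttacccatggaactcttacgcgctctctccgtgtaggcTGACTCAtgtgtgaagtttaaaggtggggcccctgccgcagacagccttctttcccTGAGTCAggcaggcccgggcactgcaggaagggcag
Lamb3: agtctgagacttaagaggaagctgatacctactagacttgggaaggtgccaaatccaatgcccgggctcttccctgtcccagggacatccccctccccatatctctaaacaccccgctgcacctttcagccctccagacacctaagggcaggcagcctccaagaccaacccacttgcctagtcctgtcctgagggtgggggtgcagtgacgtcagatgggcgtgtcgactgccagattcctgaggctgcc

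The Lama3 window held 3 AP-1 matches, which begin 240, 92 and 36 bases before the start. At least 1 match is found in 6.34% of the 33469 rat promoter windows of this length, and at least 3 are found in 0.0149% of them. The Lamb3 window held 0 AP-1 matches. The E-box CANNTG matched 3 times in Lama3 and 2 times in Lamb3, and 65.5% of windows hold it. Neither window matched the GC box GGGCGG (30.5% of windows), the AP-2 motif GCCNNNGGC (12.6%) or TATAAA (12.9%), and no motif overlapped another of these kinds except an E-box and an AP-1 match in Lama3. The G and C content was 58.0% and 58.4%. These matches are descriptions of the letters and were not measured as binding sites, and their bearing on the level of either gene was not tested.

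Itgb4, the integrin beta subunit, was high at PND50 and low at PND35. Its log2 intensity at PND50 had a lowest value of 9.71, a median of 9.78 and a highest value of 10.03 (8 pools), against 9.27, 9.43 and 9.80 at PND35. The vinclozolin pools read 10.03 and 9.78 at PND50, against 9.52 and 9.61 at PND35. The genistein pools read 9.75 and 9.71 at PND50, against 9.80 and 9.49 at PND35. Genistein was the only treatment in which the ages overlapped for Itgb4, because the first genistein PND35 pool was as bright as the older glands. The mixture pools read 9.93 and 9.84 at PND50, against 9.32 and 9.36 at PND35. The control pools read 9.78 and 9.72 at PND50, against 9.30 and 9.27 at PND35. Among the groups, vinclozolin PND50 and mixture PND50 lay highest and overlapped each other. Mixture PND35 and control PND35 lay lowest, with a gap of 0.23 between the means of vinclozolin PND35 and mixture PND35.

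Lama3, the laminin alpha chain, followed a similar course over a smaller range. It read 8.37 to 8.78 at PND50 with a median of 8.60, against 8.22 to 8.72 at PND35 with a median of 8.36. In the vinclozolin pools it stood at 8.67 and 8.52 at PND50, against 8.45 and 8.62 at PND35, and the ages overlapped. In the genistein pools it stood at 8.53 and 8.37 at PND50, against 8.72 and 8.37 at PND35, where the first pool was again the bright one. The mixture pools were separate, with 8.60 and 8.67 at PND50, against 8.22 and 8.34 at PND35. So were the control pools, with 8.78 and 8.60 at PND50, against 8.26 and 8.34 at PND35. In the order of the 8 groups by mean, the 6 highest, from control PND50 down to genistein PND50, each overlapped the next. Control PND35 and mixture PND35 lay below them and overlapped each other.

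Lamb3, the laminin beta chain, showed no common course with age. It read 7.14 to 7.67 at PND50 with a median of 7.32, against 7.20 to 7.51 at PND35 with a median of 7.39. Vinclozolin pools read 7.67 and 7.34 at PND50, against 7.51 and 7.45 at PND35, which overlapped. Genistein pools read 7.25 and 7.14 at PND50, against 7.43 and 7.36 at PND35, so that here the older glands were the dimmer ones. Mixture pools read 7.30 and 7.30 at PND50, against 7.20 and 7.44 at PND35. Control pools read 7.39 and 7.38 at PND50, against 7.26 and 7.27 at PND35, with the older glands brighter. The means of both vinclozolin groups were the highest, and genistein PND50 was the lowest. Lamb3 was the dimmest member: 31.9% of the genes tested had a lower mean intensity, which says nothing of its level against the other members, since probe sets differ in brightness.

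Itga6, the integrin alpha subunit, had the tightest replicates. Its within-group SD was 0.0333 on the log2 scale, smaller than in all but 0.932% of the genes tested, whose median was 0.0958, while the SDs of Lama3, Lamb3 and Itgb4 were 0.128, 0.107 and 0.108. It read 10.06 to 10.31 at PND50 with a median of 10.17, against 10.03 to 10.31 at PND35 with a median of 10.21. The vinclozolin pools read 10.31 and 10.30 at PND50, against 10.11 and 10.19 at PND35, so the older glands were brighter. The genistein pools showed the opposite order, with 10.06 and 10.11 at PND50, against 10.31 and 10.31 at PND35. Of all genes tested, 3.16% had pools that separated in these opposite ways in the genistein and vinclozolin groups. In the mixture pools, 10.23 and 10.19 at PND50 stood against 10.31 and 10.23 at PND35, where the nearest pools differed by less than 0.01. The control pools read 10.11 and 10.15 at PND50, against 10.04 and 10.03 at PND35, and control PND35 was the lowest of the 8 groups. In the order by mean, genistein PND35, vinclozolin PND50, mixture PND35 and mixture PND50 came first, and of the 7 neighbouring pairs of groups only 2 overlapped, vinclozolin PND50 with mixture PND35 and vinclozolin PND35 with control PND50.

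**Figure D1:**
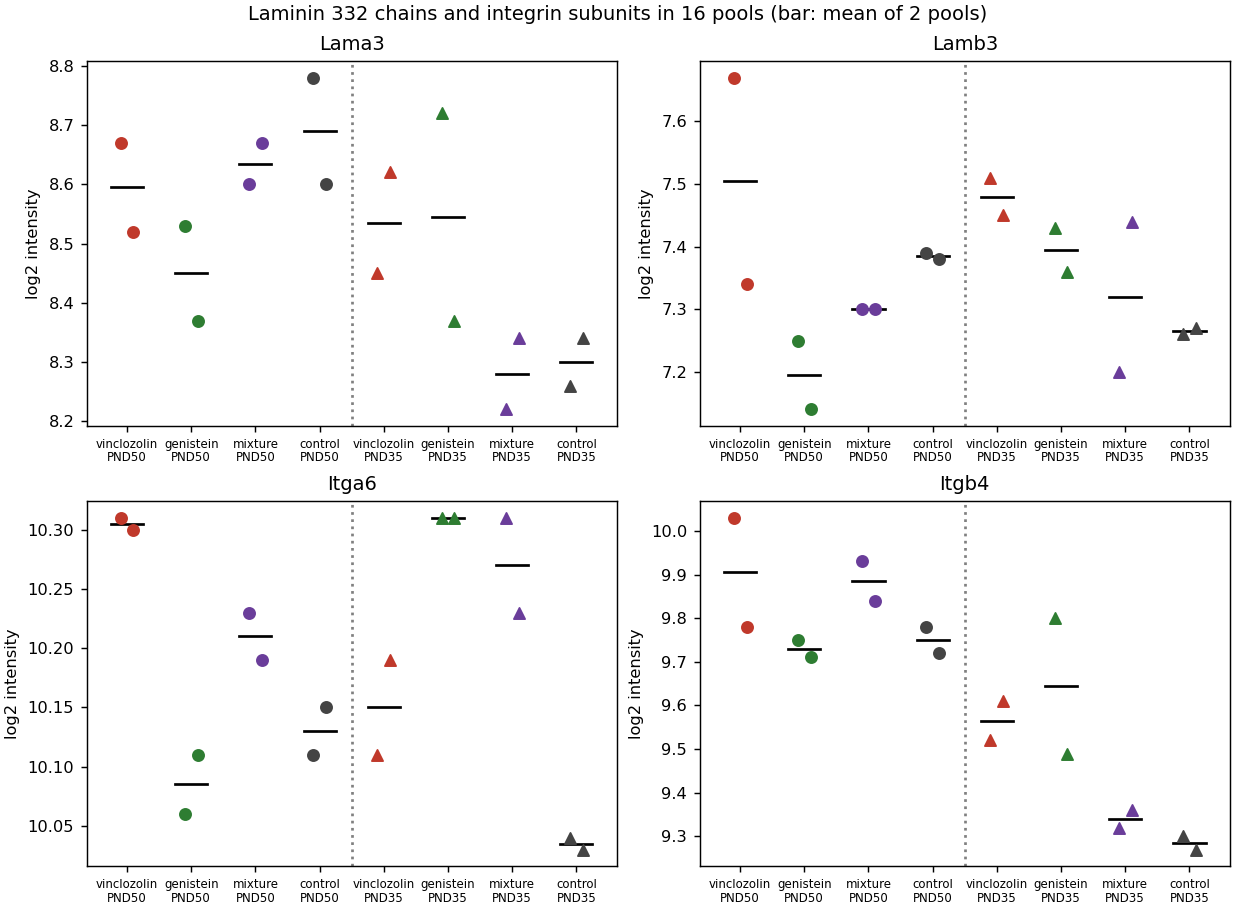
Log2 intensity (vertical axis, a separate scale for each gene) of the 4 genes in all 16 pools, with PND50 groups (circles) left of PND35 groups (triangles) and a bar at the mean of each group's 2 pools. Itgb4 reads 9.71 or higher in every PND50 pool, and the 2 pools of Itga6 lie close together in every group.

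The first comparison set PND50 glands against PND35 glands over the 4 treatments together, to describe maturation through puberty. Itgb4 rose 1.28-fold (log2 fold change 0.36, SE 0.05, n = 8 pools per age, adjusted p = 0.000414 by limma). Lama3 rose 1.13-fold (log2 fold change 0.18, SE 0.06, adjusted p = 0.0296 by limma). Lamb3 stood at -0.02 (SE 0.05, adjusted p = 0.793) and Itga6 at -0.01 (SE 0.03, adjusted p = 0.84), and neither passed the test. The 95% interval of the log2 fold change was -0.13 to 0.09 for Lamb3 and -0.07 to 0.05 for Itga6. Of all genes tested, 44.6% passed in this comparison, 19.4% as higher, so 2 members of 4 is a count near the background. Itgb4 nonetheless had a larger log2 fold change than all but 2.73% of the genes, and Lama3 than all but 12.2%. Without both vinclozolin PND35 pools, Itgb4 (0.36, adjusted p = 0.00104) and Lama3 (0.21, adjusted p = 0.0228) kept their calls. The Itgb4 call also held without any 1 of the 16 pools (log2 fold change 0.32 to 0.40). The Lama3 call was lost without any one of 8 pools (adjusted p up to 0.0705), which were the first replicates of control PND35, vinclozolin PND35, mixture PND35, control PND50, vinclozolin PND50 and genistein PND50 and the second replicates of genistein PND35 and mixture PND50.

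Within single treatments, with 2 pools per age, the mixture groups had both calls. Itgb4 rose by 0.54 there on the log2 scale (SE 0.10, adjusted p = 0.00318) and Lama3 by 0.36 (SE 0.12, adjusted p = 0.0375), in a comparison that called 32.7% of genes, 14.4% as higher. The Lama3 call was lost without any 1 of the 4 mixture pools (adjusted p up to 0.167). With the epithelial score as a covariate both calls ended (Itgb4 0.15, adjusted p = 0.696, and Lama3 -0.12, adjusted p = 0.791), as they did with the skeletal muscle score, where the changes were 0.72 and 0.41 (adjusted p = 0.374 and 0.629). Neither fit called any gene in this comparison. In the controls, where 0.865% of genes passed, Itgb4 had 0.47 (SE 0.10, adjusted p = 0.0598) and Lama3 0.39 (SE 0.12, adjusted p = 0.129), and all 4 members had both PND50 pools above both PND35 pools, as did 27.8% of all genes tested. The control value of Itgb4 passed under several other settings, for example with array weights (adjusted p = 0.0226). In the vinclozolin groups, where 2.78% of genes passed, Itgb4 had 0.34 (SE 0.10, adjusted p = 0.101) and Itga6 0.16 (SE 0.06, adjusted p = 0.159). In the genistein groups, where 2.77% passed, Itga6 had -0.22 (SE 0.06, adjusted p = 0.0593), which passed with a filter at the 50th percentile (adjusted p = 0.0399). There Lamb3 had -0.20 (SE 0.10), Lama3 -0.10 (SE 0.12) and Itgb4 0.08 (SE 0.10), and none of the 4 members passed.

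**Figure D2:**
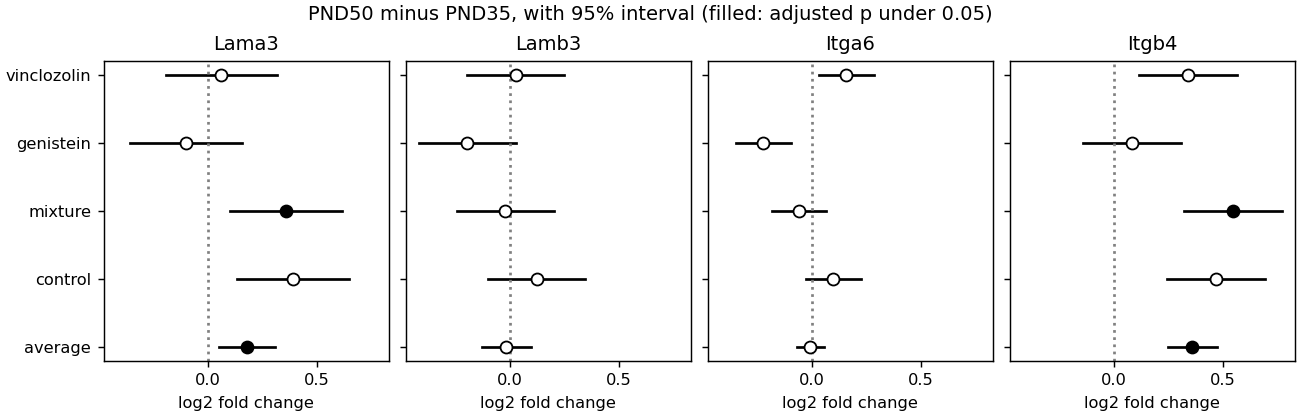
Log2 fold change of PND50 against PND35 (horizontal axis) with its 95% interval for each gene, in each treatment and averaged over the 4 treatments. Filled points have an adjusted p under 0.05; the average is 0.36 for Itgb4, 0.18 for Lama3, -0.02 for Lamb3 and -0.01 for Itga6.

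The log2 intensities of the subunits of one protein did not change by the same amount with age. Each was read by 1 probe set, and whether the probe sets respond alike to a change in RNA was not tested. The difference between 2 members was taken in each pool and compared between the ages by an exact permutation test, two-sided, with ages exchanged within each treatment (1296 arrangements, smallest possible p = 0.00154). In all, 14 such differences were tested together. The Itga6 value minus the Itgb4 value was lower at PND50 by 0.37 on the log2 scale, negative in each of the 4 treatments (exact permutation p = 0.00154, adjusted p = 0.0054). The laminin chains differed too: Lama3 minus Lamb3 was higher at PND50 by 0.19 on average (exact permutation p = 0.0201, adjusted p = 0.0351). It was positive in each of the 4 treatments, with 0.04 in vinclozolin, 0.09 in genistein, 0.38 in mixture and 0.27 in control glands. That call was lost without any one of 5 pools (adjusted p up to 0.081), the first replicates of control PND35, vinclozolin PND35 and genistein PND50 and the second replicates of genistein PND35 and vinclozolin PND50. Lamb3 minus Itgb4 was lower at PND50 by 0.38 (adjusted p = 0.0054) and Lama3 minus Itgb4 by 0.18 (adjusted p = 0.00864), both negative in each of the 4 treatments and both by the exact permutation test. Lama3 minus Itga6 did not pass (0.18, adjusted p = 0.0792), although it did without both vinclozolin PND35 pools (adjusted p = 0.0389) and without genistein PND35 replicate 1 (adjusted p = 0.0336), and nor did Lamb3 minus Itga6 (-0.01, adjusted p = 0.864).

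Epithelial genes moved beside Itgb4 and Lama3. In a whole gland, a change in the number of cells of a type and a change in RNA per cell cannot be told apart. The epithelial score ran from -0.10 to 0.25 at PND50, against -0.35 to 0.19 at PND35, and was lowest in the control PND35 pools (-0.32 and -0.35) and the mixture PND35 pools (-0.24 and -0.23). Over the 16 pools, Itgb4 correlated with this score at r = 0.91 and rho = 0.926 (permutation p = 1e-05 for both, the smallest that 100000 resamples can give, adjusted p = 0.00018 over 18 relations). Without the 2 pools farthest from the median score r was 0.857, and it was 0.803 within PND50 (exact p = 0.0126) and 0.961 within PND35 (exact p = 7.44e-05). Lama3 correlated at r = 0.848 and rho = 0.856 (permutation p = 6e-05 for both, adjusted p = 0.00036), with r = 0.82 without the 2 farthest pools. Within PND50 its r was 0.503 (exact p = 0.202) and within PND35 0.907 (exact p = 0.00285). Lamb3 (r = 0.447, rho = 0.45, permutation p = 0.0814 and 0.0816) and Itga6 (r = 0.462, rho = 0.497, permutation p = 0.0723 and 0.0512) did not pass, with r = 0.372 and 0.144 without the 2 farthest pools and adjusted p of 0.146 and 0.145 for r. Within PND50 r was 0.606 for Lamb3 (exact p = 0.102) and 0.776 for Itga6 (exact p = 0.0279, unadjusted). Within PND35 r was 0.668 for Lamb3 (exact p = 0.0781) and 0.499 for Itga6 (exact p = 0.201). Scores of other lists moved with these members too, in relations added after the values had been seen. The 2 scores tested below were picked from more lists, and the adjustment over 18 relations leaves out that choice. Other scores were not tested. Among them, the myoepithelial contractile score had r = 0.827 with Itgb4 and 0.748 with Lama3 over the 16 pools. Lamb3 had r = 0.714 with a score of hemidesmosome partner genes, and Itga6 had r = -0.64 with the macrophage score. In the Schwann cell list, Gfra3 (1.01) and Sox10 (0.38) rose with age, and Sox10 is also found in mammary epithelium. The myelin genes Mbp, Mag and Prx of that list did not pass. Its score therefore cannot be read as the amount of Schwann cells. With the Schwann cell score, Itgb4 had r = 0.897 and rho = 0.909 (permutation p = 2e-05 and 3e-05, adjusted p = 0.00018 and 0.00027), r = 0.888 without the 2 farthest pools, 0.54 within PND50 (exact p = 0.141) and 0.809 within PND35 (exact p = 0.0161). Lama3 had r = 0.812 and rho = 0.812 with it (permutation p = 0.00025 and 0.00028, adjusted p = 0.00087 and 0.00101), r = 0.751 without the 2 farthest pools, 0.467 within PND50 (exact p = 0.247) and 0.86 within PND35 (exact p = 0.00496). With the adipocyte score, Itgb4 had r = -0.79 and rho = -0.776 (permutation p = 0.00029 and 0.00051, adjusted p = 0.00087 and 0.00153), r = -0.695 without the 2 farthest pools, -0.441 within PND50 (exact p = 0.275) and -0.683 within PND35 (exact p = 0.0626). Lama3 had r = -0.693 and rho = -0.712 (permutation p = 0.00359 and 0.00265, adjusted p = 0.00923 and 0.00681), r = -0.659 without the 2 farthest pools, -0.352 within PND50 (exact p = 0.386) and -0.642 within PND35 (exact p = 0.0872). Lamb3 and Itga6 passed with neither score (adjusted p of 0.271 or more for r). Whether these relations differ in strength was not tested. The pools share treatments and ages, so they are not fully independent.

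**Figure D3:**
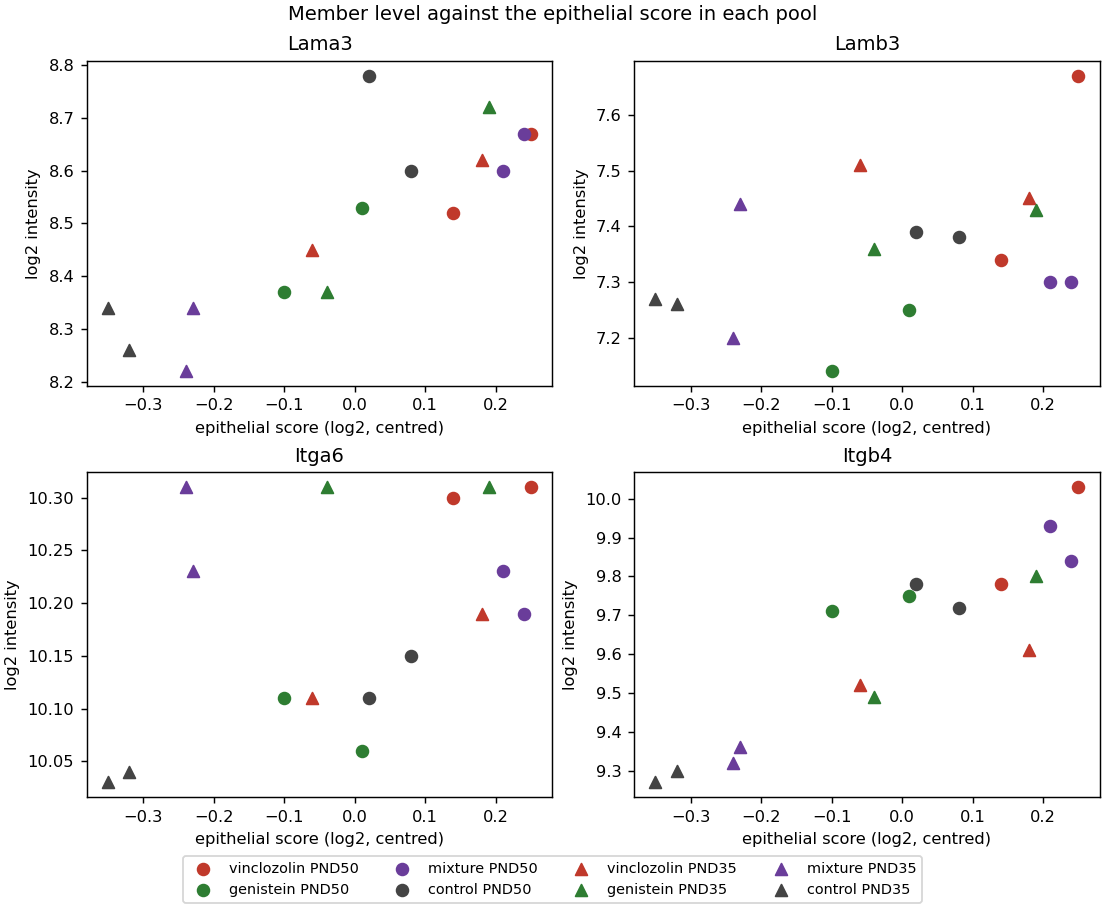
Log2 intensity of each gene (vertical axis) against the epithelial score, the mean of 12 centred epithelial genes on the log2 scale (horizontal axis), in the 16 pools; circles are PND50 and triangles PND35. Itgb4 and Lama3 climb with the score, whereas Itga6 is high in the genistein and mixture PND35 pools at scores from -0.24 to 0.19.

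Set against that score, the members separated again. The Itgb4 value minus the epithelial score was higher at PND50 by 0.14, positive in each of the 4 treatments (exact permutation p = 0.00154, adjusted p = 0.0054 over the 14 differences). Lama3 minus the score differed by -0.04 (adjusted p = 0.357) and did not pass. Lamb3 minus the score was lower at PND50 by 0.23, negative in each of the 4 treatments (exact permutation p = 0.00772, adjusted p = 0.018). Itga6 minus the score was lower by 0.22, negative in 3 of the 4 treatments (exact permutation p = 0.017, adjusted p = 0.0339). The Lamb3 call was lost without vinclozolin PND35 replicate 1 or vinclozolin PND50 replicate 2, and the Itga6 call without the first replicates of vinclozolin PND35, vinclozolin PND50 and genistein PND50 or the second of genistein PND35 (adjusted p up to 0.0741). Against a basal score of basal and myoepithelial genes, Itgb4 was higher at PND50 by 0.25 (adjusted p = 0.0054), and Lama3 (0.07), Lamb3 (-0.12) and Itga6 (-0.11) did not pass (adjusted p = 0.241, 0.125 and 0.208). Without both vinclozolin PND35 pools, Lamb3 (-0.20) and Itga6 (-0.23) did pass (exact permutation test, adjusted p = 0.0471 and 0.0389). Those pools had basal scores of 0.21 and 0.23, against -0.33 to 0.20 in the others. In limma with the epithelial score as a covariate, no member passed with age (Itgb4 0.17, adjusted p = 0.201; Lama3 -0.04, adjusted p = 0.783). That fit called 148 genes in place of 5261, and the score itself differs between the ages.

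Other laminin chains were set beside Lama3. Of 9 listed, 5 were tested, 2 fell with age and 0 rose, with a median log2 fold change of 0.04 against -0.01 over all genes. Of all 11796 genes tested, 44.6% passed with age, 2289 as higher and 2972 as lower. The counts of this and the other lists were not tested against these shares. In the mixture groups, where Lama3 rose, Lama1, an alpha chain of embryonic basement membranes, rose as well, by 0.59 (SE 0.13, adjusted p = 0.00703). Averaged over the treatments, Lama1 had 0.06 (SE 0.07, adjusted p = 0.4745) and did not pass. The remaining values of this paragraph are averages over the treatments too. Lamc1, the gamma chain of most other laminins, fell by 0.22 (SE 0.04, adjusted p = 0.00213). Lamb2, a beta chain, fell by 0.17 (SE 0.06, adjusted p = 0.0413). Lama5, the alpha chain of a laminin that also binds the integrin studied here, had 0.04 (SE 0.07, adjusted p = 0.651). Of 12 other basement membrane genes 5 were tested. Col4a1, a chain of the collagen network, fell by 0.55 (SE 0.07, adjusted p = 0.00019), and Agrn, which encodes the proteoglycan agrin, rose by 0.20 (SE 0.04, adjusted p = 0.00146).

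Among 13 other integrin subunits tested, 5 rose, 3 fell and 5 did not pass (median 0.03). Over all genes tested, 44.6% passed in this comparison, 19.4% as higher. Itga11, a collagen receptor subunit of fibroblasts, rose by 0.33 (SE 0.09, adjusted p = 0.0151), and Itgb8, a subunit of an integrin that activates transforming growth factor beta, rose by 0.31 (SE 0.07, adjusted p = 0.00592). Itga5, the fibronectin receptor subunit, fell by 0.38 (SE 0.04, adjusted p = 9.58e-05). Itgb1, the other partner of the Itga6 product, fell by 0.20 (SE 0.05, adjusted p = 0.006). Its mean log2 intensity was 10.80 at PND50, against 10.99 at PND35. Thus of the beta subunits that can pair with the Itga6 product, Itgb4 was higher at PND50 and Itgb1 lower.

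Of 7 hemidesmosome partners 4 were tested, of which 1 rose and 0 fell (median -0.08). The one was Col17a1, the transmembrane collagen of hemidesmosomes, by 0.21 (SE 0.04, adjusted p = 0.00274). Plec, which encodes plectin, the linker from the integrin beta subunit to keratin, had -0.08 (SE 0.04, adjusted p = 0.169). Cd151, a tetraspanin that binds laminin-binding integrins, had -0.07 (SE 0.07, adjusted p = 0.445). The keratin gene Krt14 had -0.25 (SE 0.13, adjusted p = 0.1388). It fell by 1.15 in the vinclozolin groups (SE 0.27, adjusted p = 0.0433). It had -0.40 in the genistein, 0.02 in the mixture and 0.52 in the control groups, and passed in none of these. Of 11 integrin linkage genes tested 1 rose and 4 fell (median -0.05). Fermt2, a kindlin that activates integrins, fell by 0.23 (SE 0.04, adjusted p = 0.00114), Vcl, which encodes the actin linker vinculin, by 0.20 (SE 0.05, adjusted p = 0.00808) and Ilk, the integrin-linked kinase, by 0.18 (SE 0.04, adjusted p = 0.0054). Of 4 proteases that can trim laminin-332, 2 rose, Tll1, a tolloid protease, by 0.73 (SE 0.15, adjusted p = 0.00303) and the gelatinase gene Mmp2 by 0.16 (SE 0.03, adjusted p = 0.00308). Beside the counts of this paragraph, 44.6% of all genes tested passed with age, 19.4% as higher.

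Epithelial lists gave the following counts, beside 44.6% of all genes tested that passed with age, 19.4% as higher. Of the 12 epithelial genes 8 rose and 0 fell (median 0.25), with Ehf, an epithelial transcription factor, at 0.42 (SE 0.06, adjusted p = 0.000561) and Cldn7, a claudin, at 0.36 (SE 0.08, adjusted p = 0.00313). Of 5 myoepithelial contractile genes 3 rose and 0 fell (median 0.20), with Cnn1 at 0.47 (SE 0.06, adjusted p = 0.000273). Of 3 basal epithelial genes 1 rose and 1 fell. They were Tp63, the basal transcription factor, at 0.26 (SE 0.07, adjusted p = 0.0151) and Krt17, a keratin also made in hair follicles, at -0.31 (SE 0.11, adjusted p = 0.0344). Of 8 endothelial genes tested 1 rose and 1 fell (median 0.02). Of 5 genes of a Schwann cell list, a cell type that also makes Itgb4, 2 rose, Gfra3, a growth factor receptor, by 1.01 (SE 0.13, adjusted p = 0.000203) and Sox10, a transcription factor also found in mammary epithelium, by 0.38 (SE 0.05, adjusted p = 0.000194). The myelin genes Mbp (-0.00, SE 0.07), Mag (0.05, SE 0.04) and Prx (0.09, SE 0.05) did not pass. The Schwann list's score ran from 0.04 to 0.30 at PND50, against -0.36 to 0.17 at PND35, and the part of these cells in the Itgb4 change was not tested. Genes of other tissues differed with age on the average over treatments as well. All 9 skeletal muscle genes fell (median -1.46), as did 3 of 8 adipocyte genes with 0 rising (median -0.21). In the vinclozolin groups, however, all 9 skeletal muscle genes had a positive log2 fold change, from 0.33 for Tnni2 to 1.07 for Tnnt3. None of them passed there. All 6 hair follicle genes fell (median -0.87) and 1 of 5 skin keratinocyte genes, both lists being high in the vinclozolin PND35 pools, while 2 of 8 macrophage genes rose and 1 fell. In the control groups no hair follicle gene passed with age, and their log2 fold changes ran from -0.07 for Krt27 to 0.20 for Krt28. The part of these tissues in the members' changes was not tested beyond the score covariates.

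**Figure D4:**
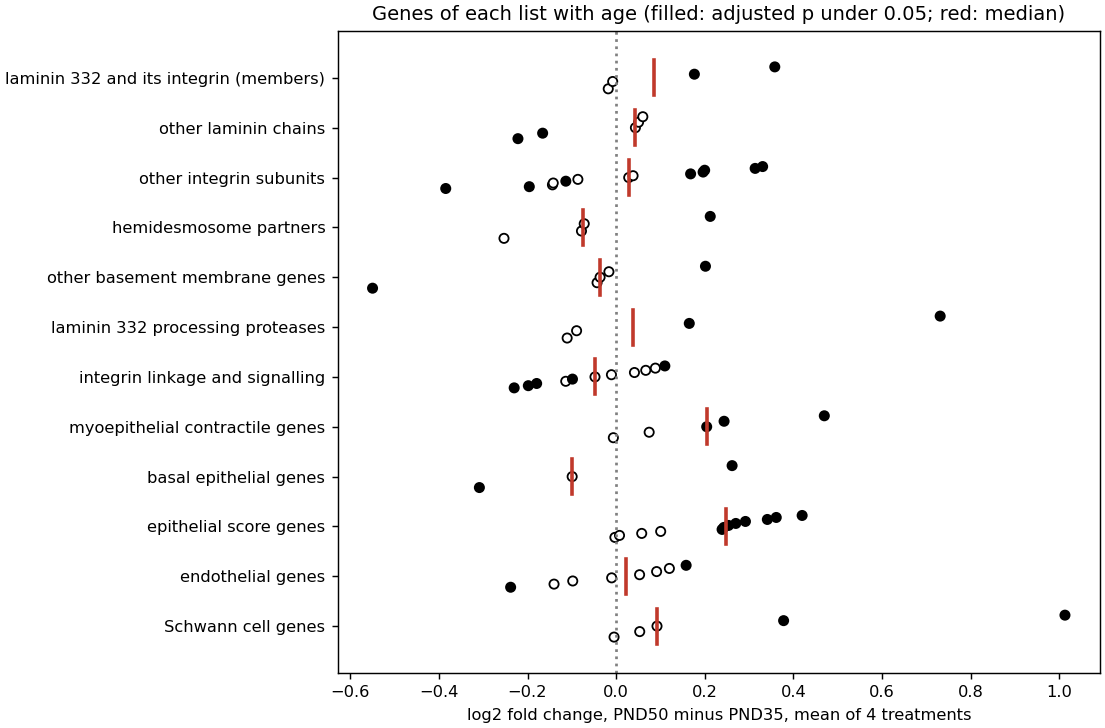
Log2 fold change of PND50 against PND35, averaged over the 4 treatments (horizontal axis), for each tested gene of 12 lists, with the list median in red and filled points at an adjusted p under 0.05. Itgb4 lies at 0.36, among the epithelial genes that rose (0.24 to 0.42), and the other laminin chains lie between -0.22 and 0.06.

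Exposed and control glands were first compared at PND35, when dosing of the dams had ended at PND 21. No member passed with any of the 3 exposures. Limma called 1.34% of genes with vinclozolin, 0% with genistein and 0% with the mixture, where 1311 and 1799 genes had an unadjusted p under 0.05. With genistein, Itga6 read 10.31 and 10.31, against 10.04 and 10.03 in the controls. The exposed pools were separate from the controls by more than either pair differed. Its log2 fold change of 0.28 (SE 0.06, unadjusted p = 0.000466, adjusted p = 0.232) had rank 21 of 11796 by p. With the mixture, Itga6 read 10.31 and 10.23 against the same controls, a difference of 0.23 on the log2 scale (SE 0.06, adjusted p = 0.157). With vinclozolin it read 10.11 and 10.19, a difference of 0.11 (SE 0.06, adjusted p = 0.406). All 6 exposed pools of Itga6 thus lay above both control pools, which the 3 comparisons share. The same held for Itgb4 and for 6.47% of all genes tested. Itgb4 had 0.29 with vinclozolin (SE 0.10, adjusted p = 0.232), 0.37 with genistein (SE 0.10, adjusted p = 0.269) and 0.06 with the mixture (SE 0.10, adjusted p = 0.811). Lama3 had 0.23, 0.25 and -0.02 with vinclozolin, genistein and the mixture (SE 0.12 each, adjusted p = 0.396, 0.462 and 0.957). Lamb3 had 0.21, 0.13 and 0.05 in the same order (SE 0.10 each, adjusted p = 0.367, 0.69 and 0.839).

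Keratin genes moved beside these values in the vinclozolin pools. Krt14, the basal keratin to which hemidesmosomes connect and which is also made in skin, rose by 1.85 (SE 0.27, adjusted p = 0.00397), and Krt17 rose by 2.74 (SE 0.21, adjusted p = 1.52e-05). Of 6 hair follicle genes 5 rose and of 5 skin keratinocyte genes 3 rose, and skin makes all 4 members. Their part in the vinclozolin values of the members was not tested. The epithelial score of the vinclozolin pools was -0.06 and 0.18. Genistein pools scored 0.19 and -0.04, mixture pools -0.24 and -0.23, and control pools -0.32 and -0.35. All 12 epithelial genes had a positive log2 fold change with genistein (median 0.40 against 0.03 over all genes), and none passed.

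**Figure D5:**
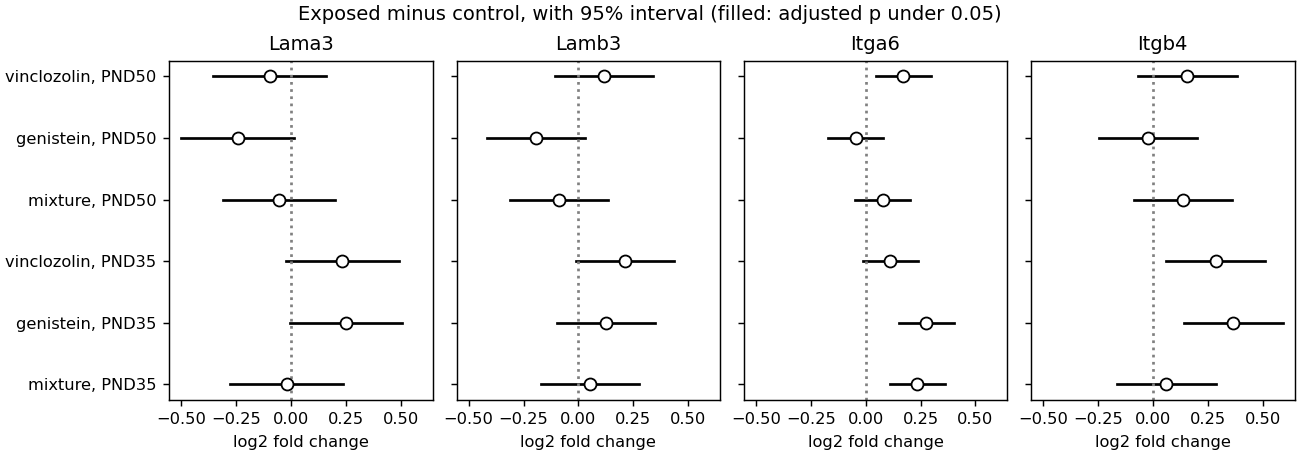
Log2 fold change of each exposure against the control of the same age (horizontal axis) with its 95% interval, for PND50 and PND35. Every point is open, since none had an adjusted p under 0.05; Itga6 at PND35 lies at 0.11 with vinclozolin, 0.28 with genistein and 0.23 with the mixture.

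At PND50 the same comparisons asked what remained in the older gland, and again no member passed. Limma called 0% of genes with vinclozolin, 0% with genistein and 0.00848% (1 gene) with the mixture, where 713, 307 and 874 genes had an unadjusted p under 0.05. With vinclozolin, Itga6 read 10.31 and 10.30, against 10.11 and 10.15 in the controls (log2 fold change 0.17, SE 0.06, adjusted p = 0.798). With genistein, Lama3 read 8.53 and 8.37, against 8.78 and 8.60 in the controls (log2 fold change -0.24, SE 0.12, adjusted p = 0.9997). Lamb3 read 7.25 and 7.14 there, against 7.39 and 7.38 (log2 fold change -0.19, SE 0.10, adjusted p = 0.9997). The genistein pools lay below both controls for these laminin chains, and by less than 0.01 for Itga6 (log2 fold change -0.05, SE 0.06, adjusted p = 0.9997), as they did for 15.8% of all genes tested. With the mixture, the log2 fold changes were -0.06 for Lama3, -0.09 for Lamb3, 0.08 for Itga6 and 0.14 for Itgb4 (adjusted p from 0.818 to 0.955).

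The mixture was also set against each single compound at the same dose. No member passed in these 4 comparisons. At PND35 the mixture against vinclozolin called 2.61% of genes, and the members had -0.25 for Lama3, -0.16 for Lamb3, 0.12 for Itga6 and -0.23 for Itgb4 (SE 0.12, 0.10, 0.06 and 0.10, adjusted p from 0.239 to 0.395). The mixture against genistein at PND35 called 0% (1417 genes at an unadjusted p under 0.05), with -0.27 for Lama3, -0.07 for Lamb3, -0.04 for Itga6 and -0.31 for Itgb4 (adjusted p from 0.346 to 0.807). In the pools, Itgb4 read 9.32 and 9.36 with the mixture, against 9.80 and 9.49 with genistein alone and 9.52 and 9.61 with vinclozolin alone. At PND50 the mixture against vinclozolin called 0.0339% and the mixture against genistein 0.0254%. The members ran from -0.21 for Lamb3 to 0.04 for Lama3 in the first (adjusted p from 0.468 to 0.965) and from 0.10 for Lamb3 to 0.19 for Lama3 in the second (adjusted p from 0.603 to 0.827).

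Whether exposure altered the age change was tested as the age difference of exposed glands minus that of controls. For genistein the members had -0.49 for Lama3 (SE 0.17), -0.32 for Lamb3 (SE 0.14), -0.32 for Itga6 (SE 0.08) and -0.39 for Itgb4 (SE 0.15). None passed (adjusted p = 0.578, 0.646, 0.507 and 0.58 in that order), in a comparison that called 0% of genes (906 at an unadjusted p under 0.05) and in which 39.7% of all genes had a positive value. For Lama3, Lamb3 and Itga6 the genistein pools lay below both controls at PND50 and above both at PND35, as for 4.86% of all genes. All 12 epithelial genes were negative there too (median -0.52 against -0.04 over all genes), none past the test. For vinclozolin, where 0.381% of genes passed, and the mixture, where 0% passed (1435 genes at an unadjusted p under 0.05), no member passed (adjusted p from 0.462 to 0.953). Itga6 had its older pools below its younger ones in the mixture groups and above them in the control groups, as had 1.67% of all genes. It was 3.32% for the same contrast of the mixture with the vinclozolin groups.

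Moderated F tests over several groups at once were added after the values had been seen. Over all 8 groups, in a test that called 21.4% of genes, Itgb4 passed (adjusted p = 0.00868) and so did Itga6 (adjusted p = 0.0239), whereas Lama3 (adjusted p = 0.102) and Lamb3 (adjusted p = 0.222) did not. The Itga6 call was lost without control PND35 replicate 1 (adjusted p = 0.0543) or replicate 2 (adjusted p = 0.0609), and Lama3 passed without genistein PND35 replicate 1 (adjusted p = 0.0483) or replicate 2 (adjusted p = 0.0406). Over the exposures within each age, 0.593% of genes passed and no member did (Itga6, rank 182, adjusted p = 0.118).

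The patterns of the members over the 16 pools were then compared with each other and with all genes tested, as a description. Itgb4 and Lama3 were the closest pair over all pools (r = 0.828, rho = 0.818, permutation p = 0.00011 and 0.00015, adjusted p = 0.000495 and 0.000675 over the 18 relations). Their r was 0.749 without the 2 farthest pools, 0.43 within PND50 (exact p = 0.291) and 0.938 within PND35 (exact p = 0.000794). The other 5 pairs had r between 0.171 for Itga6 with Lama3 and 0.491 for Lamb3 with Lama3, with adjusted p of 0.116 or more for r. Itga6 and Itgb4, subunits of one integrin, had r = 0.315 (rho = 0.406, permutation p = 0.234 and 0.123), and -0.0391 without the 2 farthest pools. Within PND50 their r was 0.712 (exact p = 0.0465, unadjusted) and within PND35 0.486 (exact p = 0.219), the first above the 0.43 of Itgb4 with Lama3 within PND50. Itgb4 with Lamb3 had 0.716 within PND50 (exact p = 0.0511).

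The genes most like Itgb4 were Shank2, a scaffold protein (r = 0.959), Tnfrsf21, a death receptor (0.953), the receptor tyrosine kinase gene Kit (0.95), the channel-like Tmc4 (0.949) and the deacetylase gene Hdac11 (0.948). Those most like Lama3 were Tmem184a (0.908), Slc44a4 (0.893), Cd200, an immunoregulatory surface protein (0.892), Plscr2 (0.887) and Pcp4 (0.884). Itga6 was nearest to Ctnnd1, the catenin that binds cadherins at epithelial junctions (0.817), Echdc2 (0.809), Socs6 (0.798), Tmem165 (0.795) and Zbtb10 (0.793). Lamb3 had the loosest neighbours, with Snx27 (0.795), Slc66a1 (0.79), Plpp2 (0.777), Sesn3 (0.755) and Rbm24 (0.754). These neighbours depended on the pools used. Without both vinclozolin PND35 pools, Itga6 was nearest to Rpl4, Ppp1cb, Tmem165, Ctnnd1 and Tpm1, and Lamb3 to Shisa4, Prdx4, Jdp2, Plpp2 and Slc66a1. With group means subtracted, so that differences between pools of a group alone counted, Itgb4 and Lama3 had r = 0.797 and Itgb4 and Itga6 r = 0.132. In that setting none of the neighbours named above was among the 5 nearest genes of its member.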

How the data were processed

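Total RNA of individual glands was pooled by 5 and hybridised to Affymetrix arrays, per the labels. The authors deposited 1 value per probe set and array (27342 by 16), taken as log2 intensities, a base no source states, from their range of 2.2 to 13.9. Background correction and normalization: not given in the sources used here. Array medians lay between 7.05 and 7.145. Groups came from sample titles. Probe sets were named through the platform annotation (15097 with 1 symbol, 323 with several, 11922 unnamed here), with symbols updated through RefSeq (15067 matched). Genes under the 25th percentile of probe set means (5.661) were left out. The brightest probe set of a symbol was kept. Limma 3.58.1 in R 4.3.3 fitted 8 group means (8 residual degrees of freedom), with two-sided contrasts and Benjamini-Hochberg adjustment over all 11796 genes at a threshold of 0.05, for 18 comparisons. The median SE was 0.0941 between 2 groups. The number of arrays limits precision. The 16 companion lists held 152 genes, of which 111 were tested. From a list, up to 4 genes past the test were named by size of change, or else the largest 2. Genes most like a member are the 5 highest Pearson r. Members and lists were chosen with earlier results of these data known. Lama5, Itgb1, Plec, Cd151 and the myelin genes were named for their roles after their values were seen. Lama1 and, with age, Krt14 were also named after their values were seen. Alternatives were other filters, normalizations, weights, a replicate block, score covariates and pools left out. Fits were tested on simulated data. Deviations of pools with the same replicate number had a median r of 0.0351 between groups, from -0.366 to 0.301 (r over 0.1 in 8 of 28 pairs of groups). Labels gave no array batch. Permutation tests and figures were made in Python 3.11.15.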

Additional observations from a re-analysis of the deposited data

Results flagged for a closer look

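Some groups compared had pools that did not overlap and that separated in opposite directions. With genistein against control, both exposed pools of Lama3, Lamb3 and Itga6 lay below both controls at PND50 and above both at PND35, as for 4.86% of all 11796 genes tested. The difference of these effects between the ages was -0.49 for Lama3, -0.32 for Lamb3 and -0.32 for Itga6 on the log2 scale, and none passed limma's test of the difference (adjusted p = 0.578, 0.646 and 0.507). Both PND50 pools of Itga6 lay below both PND35 pools in the mixture groups and above them in the control groups. In the mixture the gap was slight, with the nearest pools at 10.23 and 10.23. Such a separation was shown by 1.67% of all genes. The age changes of the mixture and control groups differed by -0.16 (adjusted p = 0.462 by limma). The age change of Itga6 in the genistein groups differed from that in the vinclozolin groups by -0.38. Its age change in the mixture groups differed from that in the vinclozolin groups by -0.22. Of all genes, 3.16% and 3.32% had pools that separated in these ways. These last 2 differences were not tested.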

How the results depend on the processing

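With age averaged over treatments, 2 members passed, and 0 did with the epithelial or the skeletal muscle score as a covariate. The Lama3 change was then -0.0439 (a change of sign) and 0.20 and that of Itgb4 0.17 and 0.44. Leaving out 1 pool at a time gave 1 to 2 members (Lama3 0.13 to 0.22). With age in the mixture 2 members passed, 0 with either covariate (Lama3 -0.12, a change of sign, and Itgb4 0.15 with the epithelial one, 0.41 and 0.72 with the muscle one, both larger than reported, in fits that called 0 genes for that comparison) and 1 to 2 without 1 pool. With age in controls 0 passed, and 1, Itgb4, did at the 50th percentile filter, with quantile normalization, the replicate block, array weights, an intensity trend or the 2 groups alone, and 0 to 1 without 1 pool. With age in genistein 0 passed, and 1, Itga6, did at the 50th percentile filter or with the trend. Both covariates differ between the ages. Otherwise the cause of these shifts was not tested. The count of members stayed at 0 in the other 14 comparisons under every alternative run. The replicate block, a shared number and not a known pairing, left 2 members called for age and 5261 genes, gave 141 genes in place of 102 for age in controls and 4 in place of 1 for the mixture at PND50, and changed no call of another member. Without both vinclozolin PND35 pools 2 members passed with age. The differences between members that lost or gained a call are given with them above, as are Lamb3 and Itga6 minus the basal score, which passed without both vinclozolin PND35 pools (adjusted p = 0.0471 and 0.0389). Dim probe sets were judged by value alone, since no detection calls were used. Over all genes, the count called ran over the alternatives other than single pools left out from 26 to 5486 for age (5261 as reported), 0 to 375 in controls (102), 25 to 430 in vinclozolin (328), 0 to 477 in genistein (327) and 0 to 4568 in the mixture (3852). It ran from 25 to 192 for vinclozolin against control at PND35 (158), 31 to 373 for the mixture against vinclozolin at PND35 (308), 0 to 108 at PND50 (4), 0 to 5 for the mixture against genistein at PND50 (3), 0 to 7 for the mixture against control at PND50 (1) and 11 to 56 for vinclozolin by age (45). The other 7 comparisons had at most 2.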
